A study of Labroides dimidiatus with 18 samples.

Results

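The 100 gene models described here were the ones whose level differed most from fish to fish of the same site, out of 28134 models counted in the forebrain of the bluestreak cleaner wrasse, Labroides dimidiatus. They were chosen from measured values. Counts were scaled to a common library total (CPM), and 665 models had a mean of at least 200 CPM over 17 fish once the 100 highest means were set aside. Each model's variance among fish was taken around the site mean, pooled over the 4 sites, on the scale log2(CPM + 50). Of the 50 models that followed Ldim_g12384 most closely within sites, 18 lay among the 665 and were removed. The members are the first 100 of the remaining 647 by that variance, so their high variance is how they were found and is given as a description without a test.

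The libraries came from 18 female fish, each library being 1 fish. The high-density groups were The Crest (n = 5, fish 11 to 15) and Clam Gardens (n = 3, fish 8 to 10), and the low-density groups were Osprey (n = 7, fish 1 to 7) and Watson's Bay (n = 3, fish 17, 19 and 20). What the density measures is not in the labels, and each site has a single density, so density and site cannot be told apart. The labels give density and site as the treatment and name no altered gene. The tissue in every group was a 300 µm slice of the frozen head, the second from the front of the brain, with the pallial areas Dl and Dm and parts of the septal and striatal territories. Fish died 6 to 28 minutes after capture.

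Cleaner wrasses live by picking parasites from other reef fish, and their social and foraging decisions have made them a model for fish cognition. The pallial areas Dl and Dm are compared with the mammalian hippocampus and basolateral amygdala. Wild individuals of one species differ from each other in the levels of many transcripts, and a comparison of group means treats that spread as error. A 3′ tag library reads each transcript near its end, so a level here is a relative number of transcripts and does not grow with transcript length. In bulk tissue, fewer cells of a type and less RNA per cell cannot be told apart. The files give gene models by identifier and do not pair them with gene names, so no function is assigned to any model and tissue markers could not be checked.

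Gene counts per fish ran from 26092 in Clam Gardens fish 9 to 88153 in The Crest fish 11 among the 17 fish used. The library of Watson's Bay fish 19 stood apart, with 3868 gene counts and 57.0% of its records unaligned, and it was not used to choose or test members. A count of 3, taken as the detection floor, equals 34.0 CPM in the deepest of the 17 libraries and 115 CPM in the shallowest. Intervals and floors cover counting error only.

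Within sites, the members had a variance between 0.317 and 5.39 with a median of 0.421, which is a standard deviation of 0.649 on the log2 scale. The other 547 models had a median variance of 0.147. The 3 members just inside the limit were Ldim_g22754 at 0.3180, Ldim_g10634 at 0.3174 and Ldim_g26684 at 0.3174. The 3 models just outside were Ldim_g11649 at 0.3173, Ldim_g20001 at 0.3149 and Ldim_g10701 at 0.3147. No gap in variance therefore separates the last members from the models that follow.

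Members had low mean levels for the set they came from. Their median mean level was 282 CPM, against 380 CPM in the other 547 models, and 76 of 100 members had a mean under 400 CPM, against 290 of 547 (53.0%). The 5 members with the highest mean levels were Ldim_g510 at 1315 CPM, Ldim_g28127 at 1251, Ldim_g8713 at 1058, Ldim_g1226 at 982 and Ldim_g28137 at 981. A count of 0 occurred in at least 1 of the 17 fish for 25 members, and for 1 of the 547 others. At these mean levels a 0 can by itself raise the within-site variance, which chose the members. This contrast is therefore largely built in.

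Low counts spread by chance, so the variance of each model was set beside the variance that Poisson counting alone would give at its site means and library sizes. The observed variance was a median of 3.13 times the counting variance in members, with a range of 1.90 to 93.8, and 1.51 times in the other 547 models. The highest ratios belonged to Ldim_g13120 at 93.8, Ldim_g8713 at 85.1, Ldim_g8712 at 46.3, Ldim_g25221 at 31.8 and Ldim_g8714 at 29.4. The lowest were Ldim_g12626 at 1.90, Ldim_g6944 at 1.92 and Ldim_g1480 at 1.97. For 15 members that varied together the median ratio was 22.6, and for the other 85 members it was 2.90. The ratio for the 15 was 12.4 without The Crest fish 11, 9.24 with a pseudocount of 10 CPM and 40.7 with 200 CPM, against 22.6 with 50 CPM. The variance of every member lay above its counting variance, which the choice of members by variance fixed in advance. Members had a variance of at least 0.317, and none of the 665 models had a counting variance above 0.202. The size of the ratio differed widely between members and is given as a description.

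**Figure D1:**
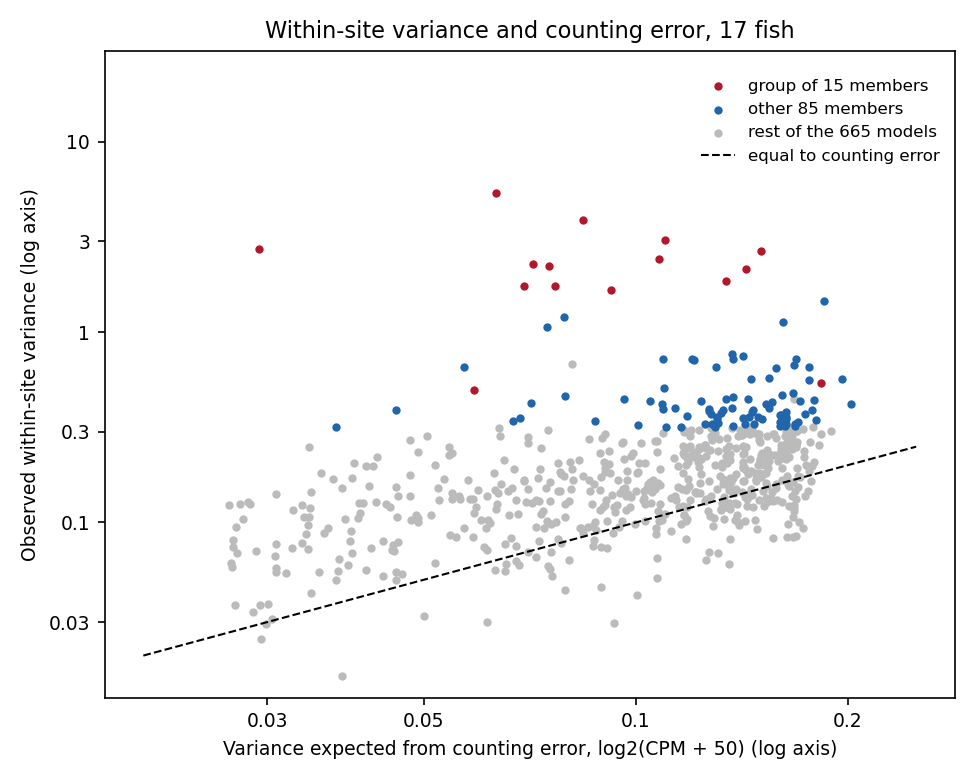
Observed pooled within-site variance of log2(CPM + 50) against the variance expected from counting error, both on log axes, for 665 gene models over 17 fish. Each point is a model, and the dashed line marks equality; most of the group of 15 lies highest, with a median ratio of 22.6, the other 85 members have a median ratio of 2.90, and 2 grey points above the last member are models removed for following Ldim_g12384.

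The members did not vary together as 1 block. The mean Pearson r over all 4950 pairs, computed on site-centred log2 levels in 17 fish that share their libraries and scaling, was 0.00886. Average linkage with a limit of 0.5 on 1 − r gave 5 groups of at least 4 members, with 15, 8, 6, 5 and 4 models, and left 62 members in none. The mean pairwise r inside these groups was 0.784, 0.657, 0.685, 0.579 and 0.664 in that order, as a description of the values that formed them.

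**Figure D2:**
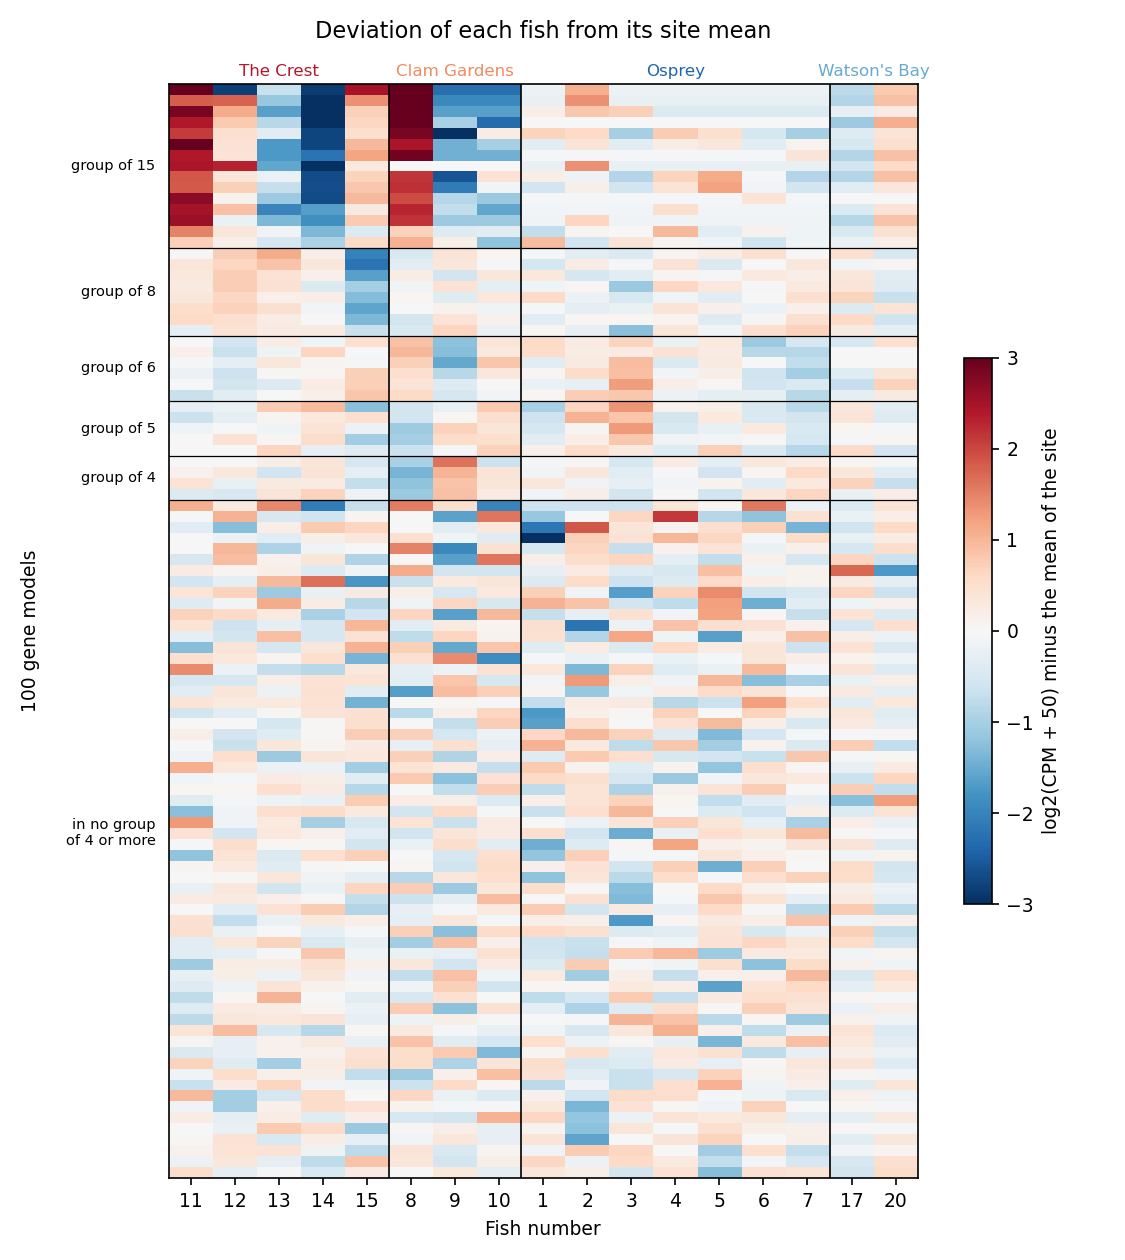
Deviation of each of 17 fish (columns, by site) from its site mean in log2(CPM + 50) for the 100 members (rows), with the 5 co-varying groups above the 62 members in no group. The group of 15 is far above its site mean in The Crest fish 11 and Clam Gardens fish 8 and far below it in The Crest fish 14, while deviations in the other rows are smaller and spread over many fish.

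The group of 15 held the 10 most variable members and contained models that were abundant in some fish and at or near 0 counts in others. Ldim_g8713, the most variable, had 8565, 39.1, 341, 36.2 and 3472 CPM in The Crest fish 11, 12, 13, 14 and 15, and 5362, 0 and 0 CPM in Clam Gardens fish 8, 9 and 10. It had 0 CPM in 6 of 7 Osprey fish and 67.4 CPM in Osprey fish 2, and at Watson's Bay 0 CPM in fish 17 and 96.8 CPM in fish 20. The level was thus high in 3 high-density fish from both sites, and close to the floor or absent in most others. The 67.4 and 96.8 CPM are 2 and 5 counts.

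The neighbouring models in the ranking were high in these fish and also in The Crest fish 12. Ldim_g8712 had 4277, 4148, 506, 36.2 and 3134 CPM at The Crest in the same fish order, 2775, 0 and 0 CPM at Clam Gardens, 0 to 101 CPM at Osprey, and 16.5 and 174 CPM at Watson's Bay. Ldim_g13120 had 5025, 1624, 493, 72.3 and 1444 CPM at The Crest, 2317, 76.7 and 0 CPM at Clam Gardens, 0 CPM in every Osprey fish, and 16.5 and 252 CPM at Watson's Bay. For both, The Crest fish 14 and Clam Gardens fish 9 and 10 lay among the low-density fish, and the other 5 high-density fish lay above all of those.

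Ldim_g28127, the most abundant of the group, had 7600, 2661, 1783, 277 and 3318 CPM at The Crest and 3341, 76.7 and 984 CPM at Clam Gardens. It had 0 to 150 CPM with a median of 39.8 CPM at Osprey, and 165 and 678 CPM at Watson's Bay. Ldim_g28137 had 6648, 2113, 1176, 181 and 2151 CPM at The Crest, 2991, 0 and 445 CPM at Clam Gardens, 0 to 121 CPM at Osprey, and 182 and 349 CPM at Watson's Bay. The same fish were again high, and Watson's Bay fish 20 was the highest of the low-density fish for both.

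Ldim_g28128 had 3800, 1722, 620, 121 and 1843 CPM at The Crest, 1670, 38.3 and 304 CPM at Clam Gardens, and at most 271 CPM in low-density fish. Ldim_g25222 and Ldim_g25221 were highest in The Crest fish 11, at 4867 and 2360 CPM, with Clam Gardens fish 8 at 1266 and 970 CPM. Ldim_g8711 had 5014 CPM in The Crest fish 11, 1428 CPM in Clam Gardens fish 8, and at most 67.4 CPM in low-density fish. Across the group, 14 of 15 models had their highest level in The Crest fish 11, 14 of 15 their lowest level of The Crest in fish 14, and 14 of 15 their highest level of Clam Gardens in fish 8, the exception there being Ldim_g8714, at 0 in all 3 of its fish. In 11 of 15, The Crest fish 11, 12 and 15 and Clam Gardens fish 8 all lay above every low-density fish.

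The 3 models with the highest mean r to the rest of the group were Ldim_g25222 at 0.871, Ldim_g25221 at 0.854 and Ldim_g21785 at 0.850. Those most like Ldim_g8713 among the 665 models, by Pearson r over 17 fish, were Ldim_g21785 at 0.908, Ldim_g25221 at 0.865 and Ldim_g14226 at 0.853. The loosest was Ldim_g16931, with a mean r of 0.615. It was detected in all 17 fish at 234 to 1440 CPM, highest in Osprey fish 1.

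Added up, the 15 models took 6.14% of all gene counts in The Crest fish 11 (exact Clopper-Pearson 95% interval 5.98 to 6.30). The other The Crest fish 12, 13, 14 and 15 had 2.21%, 0.654%, 0.140% and 2.25%, and Clam Gardens fish 8, 9 and 10 had 2.55%, 0.115% and 0.222%. Osprey fish had 0.0697% to 0.168%, with a mean of 0.115% ± 0.0332 (SD, n = 7), and those of Watson's Bay had 0.157% (fish 17) and 0.376% (fish 20). At high density the share therefore ran from 0.115% to 6.14%, with 3 of 8 fish inside the range of the low-density fish. In the same libraries the other 85 members together took 2.50% to 3.19% of gene counts in all 17 fish.

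**Figure D3:**
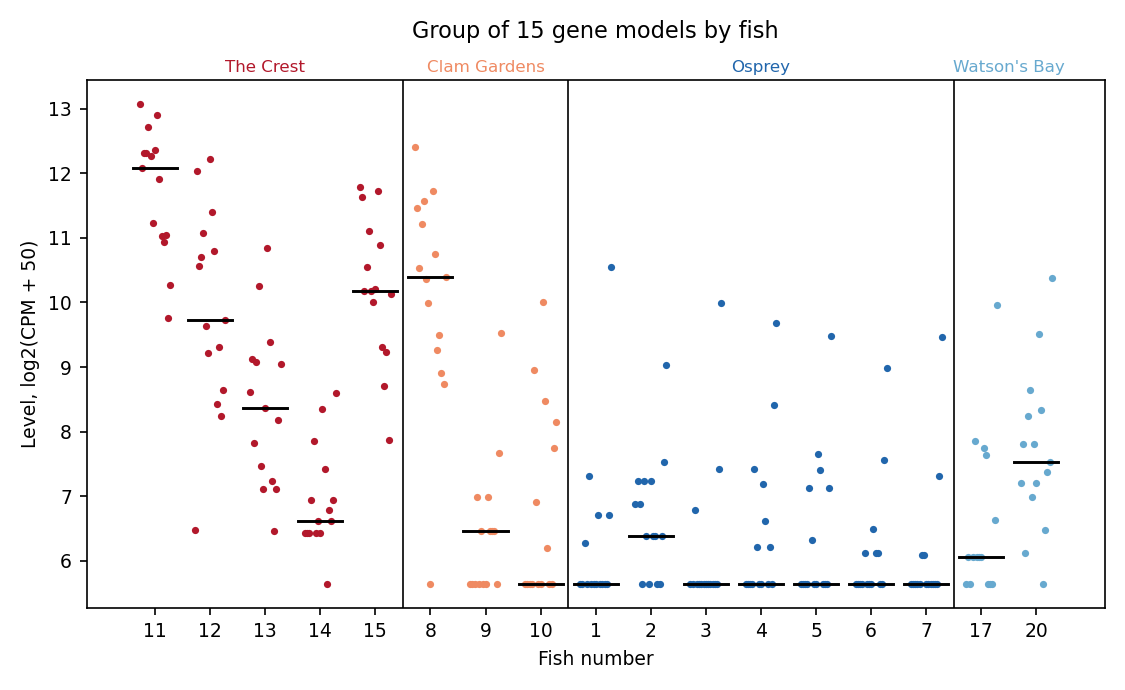
Level of the 15 co-varying models in each of 17 fish as log2(CPM + 50), with a point for each model and a bar at the median of the 15. The median is highest in The Crest fish 11, lies far above the Osprey fish in The Crest fish 12 and 15 and Clam Gardens fish 8, and is at or near the value for 0 counts in Clam Gardens fish 10 and most Osprey fish.

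The order of the fish by share of the group of 15 was not their order by depth, and whether depth had a part in the share was not tested. The deepest library, The Crest fish 11 with 88153 gene counts, had the highest share, and the second deepest, The Crest fish 14 with 82960, had 0.140%. The Crest fish 15 and Clam Gardens fish 8, with 32548 and 37116 gene counts, had 2.25% and 2.55%. The group also differed in its fish from Ldim_g12384, which was highest in Clam Gardens fish 9 at 13414 CPM and The Crest fish 15 at 12904 CPM and had 3902 CPM in The Crest fish 11. Clam Gardens fish 9 had 0.115% of its counts in the group of 15. Models that followed Ldim_g12384 most closely within sites were removed before members were chosen. A difference between the group and Ldim_g12384 is therefore partly built in and is given as a description.

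**Figure D4:**
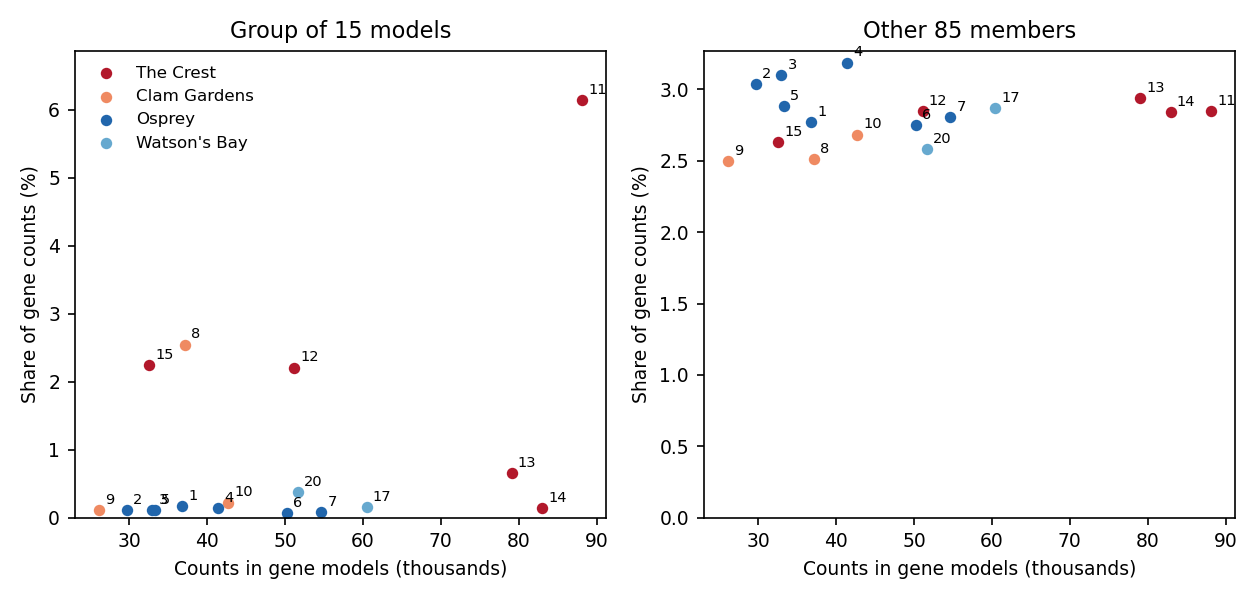
Share of gene counts in the group of 15 models (left) and in the other 85 members (right) against gene counts per fish, for 17 fish numbered as in the labels and coloured by site. The Crest fish 11 and 14, both deep, lie at 6.14% and 0.140% on the left, while on the right all fish lie between 2.50% and 3.19%.

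Several members of the group carry consecutive identifiers. The 100 members held 5 pairs with consecutive numbers, all in the group of 15: the run Ldim_g8711 to Ldim_g8714, and the pairs Ldim_g25221 and Ldim_g25222, and Ldim_g28127 and Ldim_g28128. The 647 ranked models held 30 such pairs. Within the pairs, r was 0.943, 0.778 and 0.381 along the run, and 0.963 and 0.956 in the others. Whether consecutive numbers mean neighbouring places in the genome is not given in the sources used here, and reads of near-identical copies could have been split or dropped by the counting, so levels of single models in the run are uncertain.

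The 4 models of the run were not counted in fixed proportions. In The Crest fish 12, Ldim_g8713 had 2 of the 530 counts of the run, 0.377% (exact 95% interval 0.0457 to 1.36). It made up 37.1% in The Crest fish 11, 26.2% in The Crest fish 13, 39.2% in The Crest fish 15 and 56.1% in Clam Gardens fish 8. Conversely, Ldim_g8714 had 0 of 355 counts in Clam Gardens fish 8, which allows a share of up to 0.845% by the floor of 3 counts and 1.03% by the exact 95% interval, and took 22.6%, 45.5%, 21.4% and 12.8% in The Crest fish 11, 12, 13 and 15.

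These differences exceed counting error by far: the intervals for Ldim_g8713 run from 0.0457% to 1.36% in The Crest fish 12 and from 35.0% to 39.3% in The Crest fish 11. Fish with the run therefore had counts in different combinations of its models, with Ldim_g8713 near 0 in 1 fish and Ldim_g8714 at 0 in another. Whether the transcripts or the assignment of reads to models differed between these fish was not tested. The models numbered on either side did not share the pattern. Ldim_g8710 had 0 to 11 counts per fish, highest in Osprey fish 6, and Ldim_g8715 had 0 in every fish. The ratio of Ldim_g28128 to Ldim_g28127 lay between 0.310 and 0.647 in the 8 fish with at least 20 counts of Ldim_g28127. That of Ldim_g25222 to Ldim_g25221 ran from 1.125 in The Crest fish 15 to 2.06 in The Crest fish 11, under the same limit for Ldim_g25221. Both are given without intervals and were not tested.

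**Figure D5:**
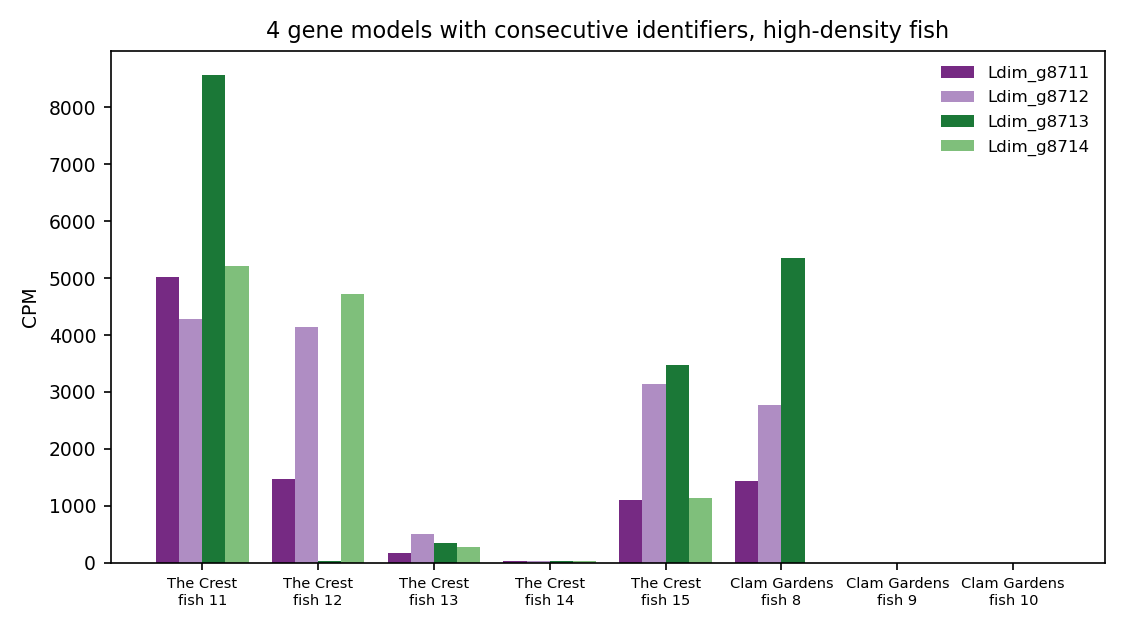
CPM of Ldim_g8711, Ldim_g8712, Ldim_g8713 and Ldim_g8714 in the 5 fish of The Crest and the 3 of Clam Gardens, as bars from 0, with no error since each bar is 1 fish. Ldim_g8713 is near 0 in The Crest fish 12, where the other 3 are high, and Ldim_g8714 is at 0 in Clam Gardens fish 8.

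Other models below the abundance limit moved with the group. Among 2250 models with at least 50 counts in total, 21 had an r of 0.8 or more with the group's mean deviation over 17 fish. Of these 12 were members and 9 had a mean under 200 CPM. The closest of the 9, Ldim_g25219, had r = 0.96 and 111, 13, 11, 1 and 14 counts in The Crest fish 11 to 15 and 14, 0 and 0 in Clam Gardens fish 8 to 10, against 1 count in all 9 low-density fish together. Ldim_g25218 and Ldim_g25220, numbered on either side of it, were also among the 9. These extra models were picked by their likeness, so their pattern is a description.

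Of the smaller groups, the second had its largest mean deviation in The Crest fish 15, and the others deviated by about 1 log2 unit in several fish. In the second, Ldim_g10634 and Ldim_g5812, the latter named after its values were seen, deviated most in Osprey fish 3. The 8 models of the second group, led by Ldim_g11442, Ldim_g26727 and Ldim_g18313, were low in The Crest fish 15, with a mean deviation of -1.48. They took 0.0645% of gene counts there (21 counts), against 0.221% to 0.350% in the other The Crest fish and 0.179% to 0.334% in the fish of the other sites. The Crest fish 15 was thus the single fish that fell outside the rest. It is the shallowest library of The Crest and had the highest Ldim_g12384 level of that site. It also held 9.45% of the squared deviation of the 547 other models, the largest share of any fish. The part of these in the low values was not tested.

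The 6 models of the third group, led by Ldim_g13650, Ldim_g315 and Ldim_g510, were highest in Osprey fish 3 (mean deviation 0.81) and lowest in Clam Gardens fish 9 (-0.96) and Osprey fish 7 (-0.73). They took 0.637% of gene counts in Osprey fish 3, 0.107% in Clam Gardens fish 9 and 0.203% in Osprey fish 7. The 5 models of the fourth group, led by Ldim_g1596, Ldim_g1770 and Ldim_g12168, were also highest in Osprey fish 3 (0.91) and lowest in Clam Gardens fish 8 (-0.78). The 4 models of the fifth group, led by Ldim_g13617, Ldim_g27396 and Ldim_g16855, were high in Clam Gardens fish 9 (1.09) and low in Clam Gardens fish 8 (-1.17), with 0.188% and 0.0242% of gene counts. That last share is 9 counts over 4 models, so this contrast rests on few counts.

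Outside the group of 15, the fish with a member's largest deviation was usually low rather than high. In 70 of the 85 the largest deviation lay below the site mean. A single fish held a median of 30.4% of a member's squared deviation, with a range of 15.3% to 77.3%, and over 50% in 10 of the 85. The clearest was Ldim_g23248, named here after its values were seen. It had 0 counts in Osprey fish 1, a library of 36801 gene counts, and 351 to 949 CPM in the other 16 fish. In Osprey fish 1, the floor of 3 counts is 81.5 CPM, so that fish fell well below the others. The numbers 70 and 10 were not taken for the other 547 models, so neither is shown to be particular to members.

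The largest deviations of these 85 members were spread over 16 of the 17 fish, with at most 12 members in any of them. The missing fish, Watson's Bay fish 17, always ties with fish 20, so its absence has no meaning. By summed squared deviation, Clam Gardens fish 9 held 9.57%, The Crest fish 15 held 9.38% and Osprey fish 1 held 8.52%. In the 547 other models the same fish held 7.04%, 9.45% and 5.97%, so the share of The Crest fish 15 was not particular to members. These 3 are among the shallower libraries, with 26092, 32548 and 36801 gene counts. For all 100 members the order differed, with 14.4% in Clam Gardens fish 8, 12.9% in The Crest fish 14 and 11.2% in The Crest fish 11, the fish at the extremes of the group of 15.

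The sites showed this variability to different degrees. For the group of 15 the median variance within a site was 3.79 at The Crest, 4.59 at Clam Gardens, 0.269 at Osprey and 0.440 at Watson's Bay (2 fish). For the other 85 members it was 0.256, 0.373, 0.386 and 0.218 in the same order, and for the 547 other models 0.112, 0.130, 0.127 and 0.0679. Medians of variances from fewer fish lie further below their means, so these medians cannot be compared evenly between sites. In the same order the means were 4.12, 5.68, 0.251 and 0.819 for the group of 15. They were 0.398, 0.687, 0.459 and 0.404 for the other 85, and 0.143, 0.209, 0.155 and 0.157 for the 547. By median and by mean, the group of 15 had a higher variance at either high-density site than at Osprey. However, 14 of the 15 had a low-density mean under 200 CPM and passed the abundance limit only through the high-density fish. Within-site variance also chose the members, so this difference is only a description of the group. Most of its models were at or near 0 in the Osprey fish, where levels under the floor rest on fewer than 3 counts. The exceptions were Ldim_g16931 at 458 to 1440 CPM and Ldim_g11641 at 54.3 to 290 CPM.

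When the 647 models were ranked by variance in each density alone, the first 100 held 63 of the members from high-density fish and 61 from low-density fish. All 15 models of the group were in the first list and 7 in the second. The abundance limit bears on this, since 14 of the 15 had a low-density mean under 200 CPM. With the limit applied within each density, 11 of the 15 were returned from high-density fish alone and 0 from low-density fish alone. The lists share no fish, and they had 26 models in common, 26.0% of either list, where each list is 15.5% of the 647. Of the 26, 19 were outside the group of 15, with a median mean level of 268 CPM. Counts this low spread by chance in both densities, and abundance was not matched in this comparison, so the overlap is given as a count.

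The study's comparison between densities was then made for the mean level of each member. Of the 100 members, 16 rose and 0 fell at high density in edgeR's quasi-likelihood test with Benjamini-Hochberg adjustment, against 20 higher (2.61%) and 2 lower (0.261%) of all 765 models with a mean of at least 200 CPM. Of these 16, 13 belonged to the group of 15. The median log2 difference, high minus low density, was 5.30 in the group of 15, -0.11 in the other 85 members, -0.04 in all members and -0.02 in all models tested. An unadjusted p under 0.05 was found for 25 members, 20 higher and 5 lower, and for 111 of all tested. DESeq2 called 16 members higher and 0 lower, against 21 higher (2.75%) and 3 lower (0.392%) of all 765.

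All 16 had a low-density mean under 200 CPM. They passed the abundance limit only through the high-density fish. Their count, p-values and separation from low-density fish, and the group's median, are therefore no independent support for a difference. This holds for each of them named below. The spread among fish of a site, which chose the members, is also the error of this test, so the choice of members and the test are not independent.

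The mean of Ldim_g28127 was 2505 ± 2421 CPM in the 8 high-density fish, against 135 ± 212 CPM in the 9 low-density fish (SD). Its log2 difference was 4.16 (SE 0.70, edgeR adjusted p = 0.00145), and 6 of the 8 exceeded all 9. For Ldim_g28137 the means were 1963 ± 2172 CPM in high-density fish, against 108 ± 109 CPM in low-density fish. Its log2 difference was 4.18 (SE 0.73, edgeR adjusted p = 0.00145), again with 6 of the 8 above all 9. The fish inside the low-density range were The Crest fish 14 and Clam Gardens fish 9 for both.

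In the group, 2 models did not pass. The log2 difference was 1.37 for Ldim_g11641 (SE 0.42, edgeR adjusted p = 0.102) and -0.13 for Ldim_g16931 (SE 0.30, edgeR adjusted p = 0.895). The 3 members outside the group that rose are named after their values were seen. Ldim_g11357 had 519 ± 488 CPM in high-density fish, against 45.1 ± 59.0 CPM in low-density fish (log2 difference 3.44, SE 0.68, edgeR adjusted p = 0.00244). Ldim_g18141 had 326 ± 274 CPM in high-density fish, against 92.3 ± 44.1 CPM in low-density fish (edgeR adjusted p = 0.00514). Ldim_g14296 had 343 ± 302 CPM in high-density fish, against 98.2 ± 63.5 CPM in low-density fish (edgeR adjusted p = 0.0171). For all 3, The Crest fish 11 was high, at 1055, 942 and 1044 CPM, though Ldim_g11357 was highest in The Crest fish 13, at 1391 CPM. None of the 3 passed when each site was given equal weight.

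The count rests in part on 1 fish, on the weight of the sites and on the test used. When each site was given equal weight, 11 members passed (15 of all 765 models), all of them in the group of 15. Without The Crest fish 11, 10 members passed, against 17 of all 766 models. The abundance limit then kept 93 members and 10 of the group of 15, of which 9 passed. With limma 1 passed (2 of all 765 models), and with edgeR's filterByExpr 1 of the 68 members it kept passed (7 of 677 models). A permutation of density over the 17 fish was added after the data were seen, and 0 members passed, with 0 of all 765 models. At an unadjusted permutation p under 0.05 there were 21 members, against 94 of all 765 models. The permutation moved density labels between fish regardless of site, so it is not exact for density. All these tests treat fish as replicates of a density, although density goes by site, with 2 sites at each.

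Among the 4 sites, 17 members differed, against 30 of all 765 models (3.92%), and 16 of the 17 were the members that rose at high density. The overlap is partly built in, since a density difference is also a difference among sites in these counts. The added member was Ldim_g19793, named after its values were seen. It had 635, 567, 607, 386 and 492 CPM at The Crest in fish 11 to 15, and 108, 0 and 0 CPM at Clam Gardens in fish 8 to 10. It had 362 to 1022 CPM at Osprey, and 711 and 19.4 CPM at Watson's Bay. Low levels thus occurred at both densities, in all Clam Gardens fish and in Watson's Bay fish 20. In the test among sites 11 of the 93 members still tested passed without The Crest fish 11 (22 of 766 models). With depth as a covariate 5 passed (11 of 765 models), with filterByExpr 2 of 68 members (14 of 677 models), and with robust dispersion 1 (4 of 765 models).

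Sites of equal density were compared as well, to see how far members differ between places with one density label. For The Crest against Clam Gardens, 0 members passed in edgeR, with 0 of 765 models (0%). DESeq2 called 2 members, with 3 of 765 models (0.392%), and without a filter on low counts edgeR called 14 members, with 21 of 15236 models. At an unadjusted p under 0.05 there were 6 members, against 62 of all models (8.10%). The smallest p was that of Ldim_g8714, with 460, 241, 22, 3 and 37 counts in The Crest fish 11 to 15 and 0, 0 and 0 in the Clam Gardens fish (edgeR adjusted p = 0.0559). All The Crest fish had counts and no Clam Gardens fish did, yet The Crest fish 14 was at the floor of 3 counts.

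Between Osprey and Watson's Bay, 0 members passed in edgeR and 0 in DESeq2, with 0 of 765 models (0%) in either. Without a filter on low counts edgeR called 6 members, all lower at Osprey, with 11 of 15236 models. At an unadjusted p under 0.05 there were 6 members, against 65 of all models (8.50%). The smallest p was that of Ldim_g17554, which had 109 to 541 CPM at Osprey with a median of 193 CPM, and 794 and 426 CPM at Watson's Bay (log2 difference -1.43, SE 0.54, edgeR adjusted p = 0.467). The groups overlapped. Without the filter its log2 difference was -1.61 and it passed the test, so this call turns on the filter.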

How the data were processed

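The authors deposited raw counts per gene model for each fish from 3′ tag sequencing, with no normalization. The submitters' processing notes list cutadapt 2.8, BWA and SAMtools without saying what each did, and the counting program, strand setting and build are not given there. Summary entries that name no gene stayed out of library sizes and tests. Among the 17 fish used, 64.2% to 69.7% of records lay outside gene models, 19.7% to 24.5% were unaligned and 5.82% to 7.62% were gene counts. Removal of PCR copies is not mentioned. Counts on tilapia transcripts were not used here.

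CPM were computed over all gene models. Tests used R 4.3.3 with edgeR 4.0.16 (TMM scaling, quasi-likelihood F test) on raw counts of 765 models with a mean of at least 200 CPM over 17 fish, and p-values were adjusted over all of them by Benjamini-Hochberg at 0.05. All 100 members passed that limit. SE was taken as the log2 difference over the root of F. Density entered as a single term; sites entered as 4 terms. The common biological coefficient of variation was 0.261. DESeq2 1.42.0 and limma 3.58.1 served as alternatives. The edgeR density fit was tried on simulated counts without site differences, where changed models shifted equally in every fish of a density. Members did not have such counts, so the trial does not show how the test behaves for them. All 153 pairs of libraries were compared, and 0 were identical or within counting error of each other. The p-values measure the spread between fish. Density goes by site, with 2 sites at each density, so the density tests treat as replicates fish that the design does not make replicates.

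Members and lists were chosen with earlier results of these data known. Models are named by fixed rules: the 10 highest variances, 5 highest means, 3 on either side of the variance limit, 5 highest and 3 lowest ratios to counting variance, 3 most central per group, 3 most like the most variable member, and at most 2 higher and 2 lower per test by smallest p, or the smallest p where none passed. Other names are marked in the text. Gene lists and cell type markers written down for this work could not be matched to identifiers, so none was tested. Within-site likeness to Ldim_g12384 was taken as Spearman's rho of site-centred log2 levels. Library order, batch and date were not found in the labels.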

Additional observations from a re-analysis of the deposited data

Results flagged for a closer look

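Among 32 sets of fish of one site examined for the 10 most variable members and the summed shares, 7 had a fish whose gap to the next exceeded Dixon's 95% limit. Chance gives this in about 5% of sets not chosen by their spread, a rate that does not apply here, since the members were chosen by their spread within sites. At The Crest (n = 5), fish 11 stood apart for Ldim_g8711 at 5014 CPM, with the next fish at 1467 CPM, and for Ldim_g25222 at 4867 CPM, with the next at 1106 CPM. At Osprey (n = 7), fish 2 stood apart for Ldim_g8713 at 67.4 CPM, Ldim_g8712 at 101 CPM and Ldim_g8714 at 101 CPM, where every other Osprey fish had 0. Osprey fish 7 stood apart for Ldim_g25221 at 18.3 CPM, with 0 in the others, and Osprey fish 5 for Ldim_g28128 at 120 CPM, with the next at 48.3 CPM. The Osprey values are 1 to 4 counts each, and where every other fish is at 0 any count exceeds the limit.

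The library of Watson's Bay fish 19, which was not used to choose members, had 2.87% of its gene counts in the 100 members (111 counts; exact Clopper-Pearson 95% interval 2.37 to 3.45), and 2 of those counts in the group of 15. The other fish of Watson's Bay had 3.02% and 2.95%.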

How the results depend on the processing

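With the 16 members that differed between densities as the base, the count was 11 with each site given equal weight. It was 1 with filterByExpr (68 members tested, 2 of them from the group of 15) and 1 with limma on log2(CPM + 50). It was 0 with the permutation of density (0 of all 765 models). With 1 fish left out it was 10 to 17, and the 10, without The Crest fish 11, stood beside 17 of all 766 models. Among the 4 sites, the count of 17 became 2 with filterByExpr, 5 with log2 depth as a covariate, 1 with robust dispersion, and 11 to 19 with 1 fish left out. Between The Crest and Clam Gardens, the count of 0 became 1 with filterByExpr, 14 without a filter on low counts and 2 with DESeq2 (3 of all 765 models). With 1 fish left out it was 0 to 2, and without The Crest fish 13 it was 1, with 1 of all 766 models. Between Osprey and Watson's Bay the count became 6 without a filter. Counts given here without the number over all tested models are not shown to be particular to members. Fewer members were tested with filterByExpr and, at 93, without The Crest fish 11, and each removed models of the group of 15 from the test, with 2 and 10 of them kept. Other causes were not tested.

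Of the 100 members, 36 were returned with a mean of 100 CPM as the limit, 24 with 400 CPM, 40 with fish 19 included, 51 from high-density fish alone and 48 from low-density fish alone, and 77 (without The Crest fish 15) to 93 (without Clam Gardens fish 10) with 1 fish left out. Membership thus depends on the abundance limit and the fish. All 15 models of the group were returned with the 100 CPM limit, 10 with 400 CPM, 10 without The Crest fish 11 and 0 from low-density fish alone. The median ratio of observed to counting variance, 3.13, was 3.51 with a pseudocount of 10 CPM and 3.04 with 200 CPM; that of the group of 15, 22.6, was 9.24 and 40.7, and 12.4 to 27.8 with 1 fish left out. No paired analysis was possible because no fish number occurs in more than 1 group. The floor of 3 counts equals 34.0 to 115 CPM at this depth, and lower levels rest on fewer counts than that.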
